A study of Mus musculus with 18 samples.

Results

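Messenger RNA was measured for 10 mouse genes of neuronal activity and brain-derived neurotrophic factor (BDNF) signalling, out of 34932 genes in the deposited table. They were taken by symbol, by matching the table's Ensembl identifiers to the GENCODE annotation. Npas4 (ENSMUSG00000045903) and Arc (ENSMUSG00000022602) are genes that neurons switch on quickly when they fire. Homer1 (ENSMUSG00000007617), Nptx2 (ENSMUSG00000059991) and Vgf (ENSMUSG00000037428) are synaptic and secreted products that activity also raises. Bdnf (ENSMUSG00000048482) and Ntf3 (ENSMUSG00000049107) encode neurotrophins, and Ntrk2 (ENSMUSG00000055254), Ntrk3 (ENSMUSG00000059146) and Ngfr (ENSMUSG00000000120) encode their receptors. All 10 genes had a row. They were taken by name and not by a threshold on measured values, although earlier results of these data were known when the set was chosen.

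The study compared mice under chronic restraint stress with control mice in 3 organs. Chronic restraint holds an animal in a confined space again and again, and serves as a model of long-lasting stress. The 6 groups are control brain, stress brain, control liver, stress liver, control testis and stress testis, with 3 RNA sequencing libraries each and 18 in all. Control and stress are the only difference the labels give within a tissue, and the sources used here do not give strain, age or the length of restraint. The design text calls the libraries biological replicates, and p-values measure the spread among these few samples. The same sample codes recur across tissues, so the libraries of an animal can be matched between tissues.

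Total counts ran from 27.85 to 36.5 megacounts per library. Neuron markers summed to between 9549 and 10350 counts scaled to library size (CPM) in the brain libraries, against at most 12.47 CPM in liver and 209.6 CPM in testis. Hepatocyte markers reached at least 81440 CPM in every liver library, and germ cell markers at least 13070 CPM in every testis library. The extraction text of the labels names hippocampus where the sample labels say brain. The brain libraries differed in regional markers within both groups. Summed striatum markers were 273.7, 303.5 and 3551 CPM in control brain replicates 1, 2 and 3, and 246.2, 522.4 and 2204 CPM in stress brain replicates 1, 2 and 3. Summed choroid plexus markers were 224.7, 194 and 199.8 CPM in the controls, and 200.5, 742.4 and 603.2 CPM under stress. Summed hippocampus markers were closer together, from 379.9 to 526.1 CPM. Stress brain replicate 3 carries a sample code with the control prefix in 1 label field, while its title, treatment field and table column say stress, so it was kept as stress, and the brain values of the 10 genes are also given without it. Within bulk tissue, fewer cells of a type and less RNA per cell cannot be told apart.

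When a neuron fires, calcium entry drives transcription factors such as CREB and SRF, and a first wave of genes that need no new protein is transcribed within minutes, Arc and Npas4 among them. NPAS4 protein is a transcription factor found mainly in neurons, and Bdnf is one of its known targets. BDNF is made as a precursor, and the mature form binds the receptor tyrosine kinase TrkB, encoded by Ntrk2, while precursor forms bind the receptor p75, encoded by Ngfr. Neurotrophin-3, encoded by Ntf3, acts mainly through TrkC, encoded by Ntrk3. In the hippocampus and cortex this system is known for its part in synaptic plasticity, and its response to stress has been studied widely.

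Promoter windows were available from RefSeq (build GRCm38.p6) for 6 of the 10 genes, namely Npas4, Homer1, Bdnf, Ntf3, Ntrk2 and Ngfr, with 14 start sites in all. Arc, Nptx2, Vgf and Ntrk3 had none in the table used. The 250 bases before each start were searched on both strands for the CREB motif core TGACG, which reads CGTCA on the other strand. It occurred in 17.8% of the 32851 windows in the table. It was found 2 times at Npas4, 3 times at the first of 2 Homer1 starts, 1 time at the third of 7 Bdnf starts, and 0 times in the other member windows. At 3 of 14 member windows, this is near the share over all windows. The 3 windows that hold it are shown 5′ to 3′ on the gene's strand, with the core in capitals.
Npas4 chr19:4989972-4990221, minus strand: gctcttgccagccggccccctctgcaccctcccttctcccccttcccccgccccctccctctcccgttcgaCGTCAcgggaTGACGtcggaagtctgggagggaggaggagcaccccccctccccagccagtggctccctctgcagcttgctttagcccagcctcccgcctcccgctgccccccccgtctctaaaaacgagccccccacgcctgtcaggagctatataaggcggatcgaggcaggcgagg
Homer1 start 1 chr13:93303507-93303756, plus strand: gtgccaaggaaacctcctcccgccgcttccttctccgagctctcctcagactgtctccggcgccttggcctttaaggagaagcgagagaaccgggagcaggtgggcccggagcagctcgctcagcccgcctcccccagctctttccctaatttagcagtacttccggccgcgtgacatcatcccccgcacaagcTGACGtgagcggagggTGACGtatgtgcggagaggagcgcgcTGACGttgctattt
Bdnf start 3 chr2:109692186-109692435, plus strand: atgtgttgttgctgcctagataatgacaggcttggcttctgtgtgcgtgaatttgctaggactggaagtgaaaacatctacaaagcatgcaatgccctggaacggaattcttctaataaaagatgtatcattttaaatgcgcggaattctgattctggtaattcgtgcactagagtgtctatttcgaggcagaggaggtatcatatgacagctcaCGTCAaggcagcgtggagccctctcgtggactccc
At Npas4 the pair of cores lies close together on opposite strands, and at Homer1 the 3 cores lie near the start on the same strand. The full palindrome TGACGTCA, present in 1.55% of all windows, was in 0 member windows. The AP-1 motif TGANTCA, present in 6.75% of windows, was found 1 time, at the second Bdnf start. The EGR motif GCGNGGGCG (4.7% of windows) and the CArG box bound by SRF (1.47% of windows) were found 0 times. The TCGTG core bound by NPAS4 dimers (13.3% of windows, CACGA on the other strand) was found 2 times each at the first and the third Bdnf starts. A match describes these letters only, and no match says nothing about a factor.

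Levels can be compared between genes only per transcript length, as TPM, the length-scaled share of transcripts. In control brain, Arc was highest with 709 ± 167 TPM (SD, n = 3), which placed it at rank 143 among 26512 genes with any signal. Vgf, a secreted neuropeptide precursor, had 444 ± 78.0 TPM. Its highest control library, with 534 TPM, lay just above the lowest of Arc, with 531 TPM. Ntrk2 followed with 151 ± 15.5 TPM, Npas4 with 116 ± 54.0 TPM, Homer1 with 77.6 ± 17.4 TPM and Nptx2 with 66.6 ± 9.32 TPM. The ranges of neighbours in this run from Ntrk2 to Nptx2 overlapped, so their order is not fixed by 3 libraries. Ntrk3 with 32.5 ± 1.54 TPM and Bdnf with 16.7 ± 3.4 TPM stood clear of their neighbours. Ntf3 with 3.30 ± 2.09 TPM and Ngfr with 2.71 ± 2.14 TPM were lowest and overlapped each other. The lengths behind these values were 1 per gene, with 13806 bases for Ntrk2 and 10502 bases for Homer1, so a gene that uses short isoforms would read lower on this scale. Counts per gene do not separate the Homer1a short form, the kinase-less form of TrkB or the alternative first exons of Bdnf.

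Across tissues, 8 of the 10 genes were higher in control brain than in control liver (edgeR, adjusted p at most 7.92e-05), and the other 2, Ntf3 and Ngfr, were not called. This contrast called most genes, 80.1% of all tested and 45.6% as higher. In control liver Arc had 3.15 ± 2.05 TPM, Homer1 2.42 ± 1.23 TPM, Bdnf 1.13 ± 0.294 TPM, Ngfr 0.973 ± 0.215 TPM, Ntf3 0.464 ± 0.287 TPM and Ntrk2 0.240 ± 0.276 TPM. The other 4 genes were at or near 0 counts in liver. Nptx2 and Ntrk3 had 0 counts in all 3 control liver libraries, so their brain levels per total count were at least 1720-fold and at least 1740-fold higher, with the floor set at 3 counts over the group. Vgf had 2 counts in the 3 libraries, which gives a ratio of 20000 (95% counting interval 5550 to 166000), and Npas4 had 4 counts, which gives a ratio of 2820 (1100 to 10300). Counts of 1 to 20 were even in 59.0% to 71.0% of genes per library, against at most 52.7% of genes with at least 100 counts, while these intervals and floors treat each count as independent. Ntf3 was 1.0 ± 0.71 (log2, SE) higher in brain than in liver and was not called (adjusted p = 0.221), but limma on log2(TPM + 1) called it (1.42, adjusted p = 0.0114). That fit called most genes too, and its median over all genes was 1.475, above the value of Ntf3. Ngfr, at -0.33 ± 0.54 (adjusted p = 0.58), had no fixed direction, since the TPM scale gave 0.77 and leaving out control brain replicate 3 gave -1.22 (adjusted p = 0.0171).

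In testis, Arc, Ngfr and Nptx2 had the highest levels of the 10 genes. Arc had 211, 233 and 236 TPM in the 3 control testis libraries, rank 809 of 29633 genes with any signal. That is a level without overlap below control brain (531 to 863 TPM), and the log2 difference, brain minus testis, was 0.93 ± 0.15 (edgeR, adjusted p = 0.000311). Ngfr was highest in testis, with 17.2 ± 1.31 TPM against 2.71 ± 2.14 TPM in brain, and the log2 difference was -3.35 ± 0.46 (adjusted p = 9.93e-05). Nptx2, a secreted pentraxin that gathers glutamate receptors at synapses, had 10.4 ± 1.59 TPM in testis. Homer1 (4.04 ± 0.239 TPM), Ntrk3 (2.67 ± 0.388 TPM), Npas4 (2.02 ± 0.189 TPM), Vgf (1.5 ± 0.179 TPM), Ntf3 (1.42 ± 0.513 TPM), Ntrk2 (0.579 ± 0.0389 TPM) and Bdnf (0.270 ± 0.149 TPM) were low there. In all, 8 genes were called higher in brain than in testis and 1 lower, where 88.1% of all genes tested were called, 41.2% as higher and 47.0% as lower. Ntf3 was not called (0.49 ± 0.56, adjusted p = 0.421) until control brain replicate 3, its lowest control library, was left out (0.95, adjusted p = 0.0341). The median of all genes was itself off 0 in these contrasts, at 0.332 for brain minus liver and -0.2 for brain minus testis, and at 1.475 and 0.393 on the TPM scale. The split of all called genes moved with it, from 8147 higher and 6143 lower to 13511 and 2498 against liver, and from 8679 and 9905 to 10754 and 8214 against testis.

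**Figure D1:**
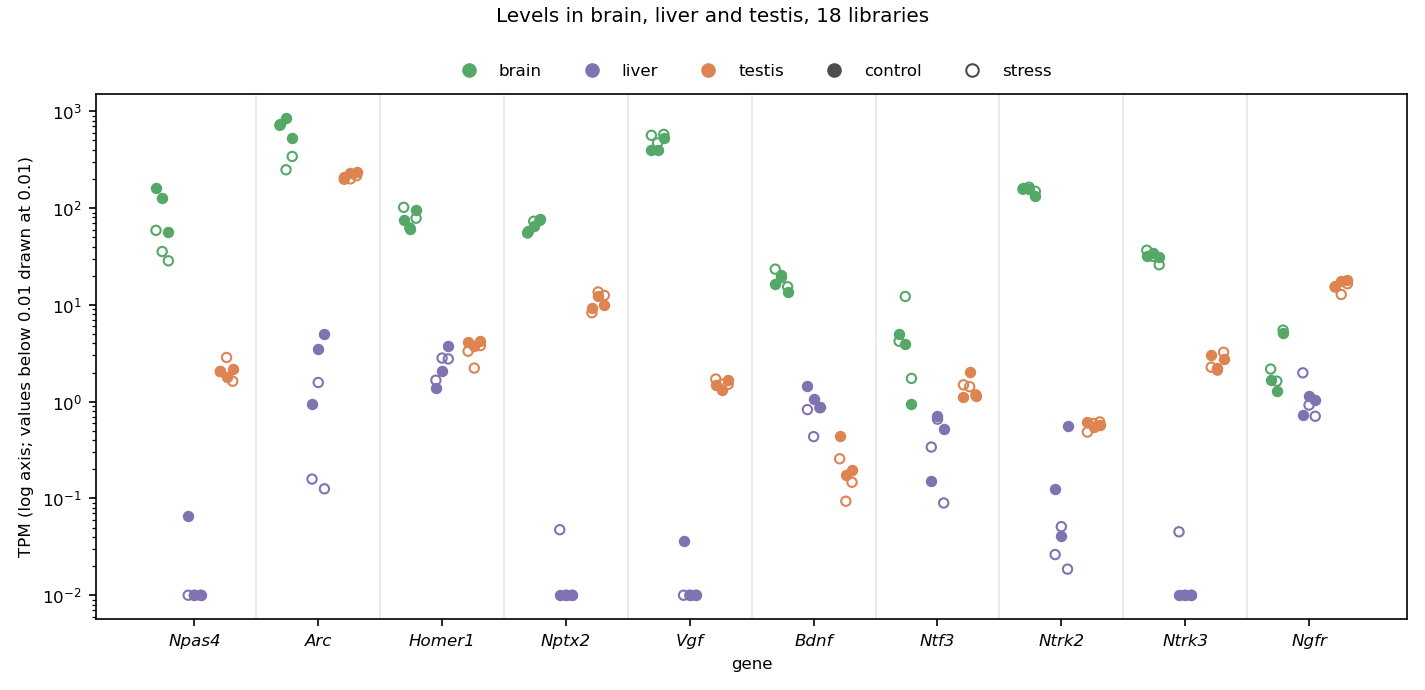
Level of each of the 10 genes in every library, in TPM on a log axis, with brain in green, liver in purple, testis in orange, control as filled and stress as open circles. Arc stays above 190 TPM in testis, Ngfr is higher in testis than in brain and liver, and 4 genes sit at the lower edge (0.01 TPM or less) in most liver libraries.

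The main comparison was stress against control in brain, and 0 of the 10 genes passed the threshold (edgeR quasi-likelihood test, Benjamini-Hochberg adjusted p under 0.05). Only 0.00566% of all genes tested, 1 of 17668, passed it. DESeq2, which called 0.775% of all genes, and limma also called 0 of the 10, and 1 gene, Npas4, had an unadjusted p under 0.05, as did 7.54% of all genes. The largest difference was that of Npas4, which was lower in all 3 stress libraries than in any control. In a fit that pairs control and stress libraries by replicate number, Npas4 was called lower, and it was the only one of the 10. The labels name no such pairs, and the fit is shown because same-numbered brain libraries deviated together in these same data. The 2 rapid genes, Npas4 and Arc, had the 2 lowest stress-to-control differences. The 8 synaptic, neurotrophin and receptor genes had differences from -0.06 to 0.86. The intervals of these 8 genes and of Arc all include 0, and only that of Npas4 does not.

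Npas4 had 159, 124 and 57.3 CPM in control brain replicates 1, 2 and 3, and 56.9, 33.9 and 28.2 CPM in stress brain replicates 1, 2 and 3. The groups do not overlap, but control replicate 3 lies hardly above stress replicate 1. Such a separation toward lower values was seen in 6.64% of all genes tested. The log2 difference, stress minus control, was -1.52 ± 0.40 (SE; 95% interval -2.44 to -0.59), with adjusted p = 0.482 in edgeR. Since the groups do not overlap, any pairing of the libraries sets Npas4 lower under stress in every pair. The fit with the replicate block gave -1.46 ± 0.14 with adjusted p = 0.012. That fit called 0.125% of all genes, 0.0283% as lower. Leaving out 1 library at a time gave -1.87 to -1.19 without the block (adjusted p from 0.213 to 0.974), and -1.32 without stress replicate 3.

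Arc encodes a cytoskeletal protein that removes glutamate receptors from synapses. It had 667, 777 and 495 CPM in control brain and 646, 221 and 315 CPM in stress brain. Stress replicate 1 sat among the controls, and replicates 2 and 3 lay below all of them. The log2 difference was -0.71 ± 0.37 (-1.58 to 0.15, adjusted p = 0.7), and -0.83 with the block (adjusted p = 0.294). It was -1.27 without stress replicate 1, -0.43 without stress replicate 2 and -0.58 without stress replicate 3.

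**Figure D2:**
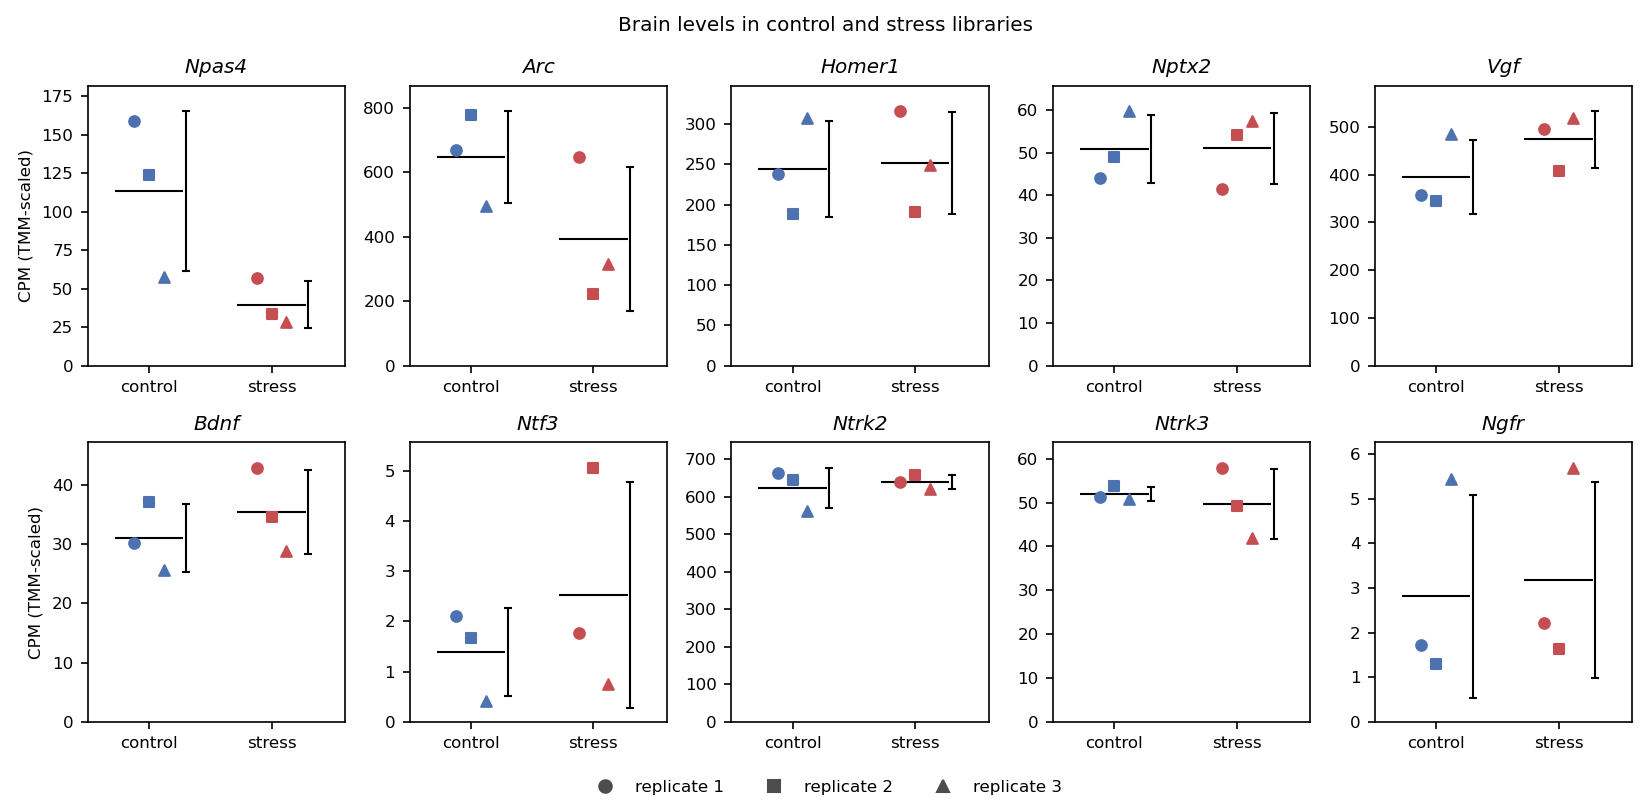
CPM of the 10 genes in the 6 brain libraries, control in blue and stress in red, with the symbol giving the replicate number, the horizontal line the mean and the bar the SD of 3 libraries. Npas4 is the one panel in which no stress library reaches the lowest control, and Ngfr is high in both libraries numbered 3.

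The synaptic and secreted products of activity had overlapping groups and were not called. Homer1, a scaffold that links metabotropic glutamate receptors to calcium stores, had 237, 189 and 307 CPM in control and 316, 190.2 and 248.9 CPM in stress brain, with a log2 difference of 0.04 (-0.48 to 0.56, adjusted p = 0.978). Nptx2 had 44.1, 48.9 and 59.7 CPM in control and 41.6, 54.2 and 57.3 CPM under stress, with a difference of 0.00 (-0.35 to 0.36). Its interval excludes a change as large as that fitted for Npas4. Vgf had 357, 345 and 484 CPM in control and 496, 407 and 518 CPM under stress. It was higher in stress than in control in each of the 3 numbered pairs, but the groups overlap, and neither the main fit (0.26 ± 0.15, -0.09 to 0.61, adjusted p = 0.734) nor the block (adjusted p = 0.267) called it.

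Of the ligands, Bdnf had 30.2, 37.2 and 25.7 CPM in control and 42.9, 34.6 and 28.8 CPM in stress brain. The highest library was stress replicate 1 and the lowest was control replicate 3, with the other 4 between. The log2 difference was 0.19 ± 0.18 (-0.23 to 0.61, adjusted p = 0.839), opposite in sign to that of Npas4, and the main fit called neither. Ntf3 rested on 15 to 174 counts per library. It had 2.11, 1.66 and 0.416 CPM in control and 1.77, 5.06 and 0.747 CPM under stress, a difference of 0.86 ± 0.76 (-0.92 to 2.64, adjusted p = 0.831) that became -0.15 without stress replicate 2, the highest library.

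Of the receptors, Ntrk2 had 663, 646 and 562 CPM in control and 638, 659 and 621 CPM in stress brain, and its log2 difference of 0.04 had the narrowest interval of the 10 genes (-0.16 to 0.23, adjusted p = 0.947). Ntrk3 had 51.3, 53.9 and 50.9 CPM in control and 58.0, 49.3 and 41.9 CPM under stress, a difference of -0.06 (-0.34 to 0.21, adjusted p = 0.93). The control libraries were close to each other and the stress libraries spread to both sides of them. Ngfr had 1.73, 1.29 and 5.43 CPM in control and 2.21, 1.63 and 5.70 CPM under stress. It was high in both libraries numbered 3, and within each of the 3 numbered pairs it was higher under stress. The log2 difference was 0.17 ± 0.65 (-1.35 to 1.68, adjusted p = 0.97) and, with the block, 0.24 ± 0.22 (adjusted p = 0.73).

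Regional markers moved with several of these values, and their part in the results was not tested. The 2 libraries with high Ngfr, both numbered 3, were also those with the highest striatum markers, and they had the lowest Ntf3 of their groups. Chat, the enzyme that makes acetylcholine, was chosen after its values were seen, since basal forebrain cholinergic neurons are known to carry p75. It had 0.208, 0.185 and 13.6 CPM in control and 0.249, 0.407 and 10.2 CPM in stress brain. Like Ngfr it was high in both libraries numbered 3. Its rise there was far larger, and between those 2 libraries Chat was lower under stress while Ngfr was higher. The stress libraries with the lowest Arc and Npas4, replicates 2 and 3, were those with the most choroid plexus markers. They also had the lowest summed cortex markers, with 364.1 and 394.7 CPM against 450.7 to 727.4 CPM in the other 4 libraries. All 7 cortex markers had negative log2 differences (median -0.394), with 0 called by edgeR and 2 at an unadjusted p under 0.05. Of the choroid plexus markers 11 of 11 tested were positive (median 1.831, 8 at an unadjusted p under 0.05, 1 called with the block). Of the hippocampus markers 9 of 11 were positive (median 0.347, 3 at an unadjusted p under 0.05, 1 called with the block). All 5 red cell markers were negative (median -0.907), and 2 were called lower with the block. Over all genes tested 7.54% had an unadjusted p under 0.05, and the block called 0.125%. Summed red cell markers were 100.7 to 259.9 CPM in control and 62 to 111.3 CPM under stress. Summed neuron markers had 9603 to 10350 CPM in control and 9549 to 9765 CPM under stress. Without stress replicates 2 and 3, which leaves 1 stress library, Arc was at 0.00 and Npas4 at -0.99. Those 2 libraries had the lowest Arc and Npas4 under stress, so a shift upward was fixed by leaving them out. Without both libraries numbered 3, Npas4 was at -1.64 (adjusted p = 0.352) and Arc at -0.74 (adjusted p = 0.673). Without stress replicate 3 alone, 0 of the 10 genes were called by edgeR, and the log2 differences not yet given were 0.32 for Bdnf, 1.29 for Ntf3, 0.05 for Homer1, -0.09 for Nptx2, 0.19 for Vgf, 0.06 for Ntrk2, 0.04 for Ntrk3 and -0.56 for Ngfr.

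**Figure D3:**
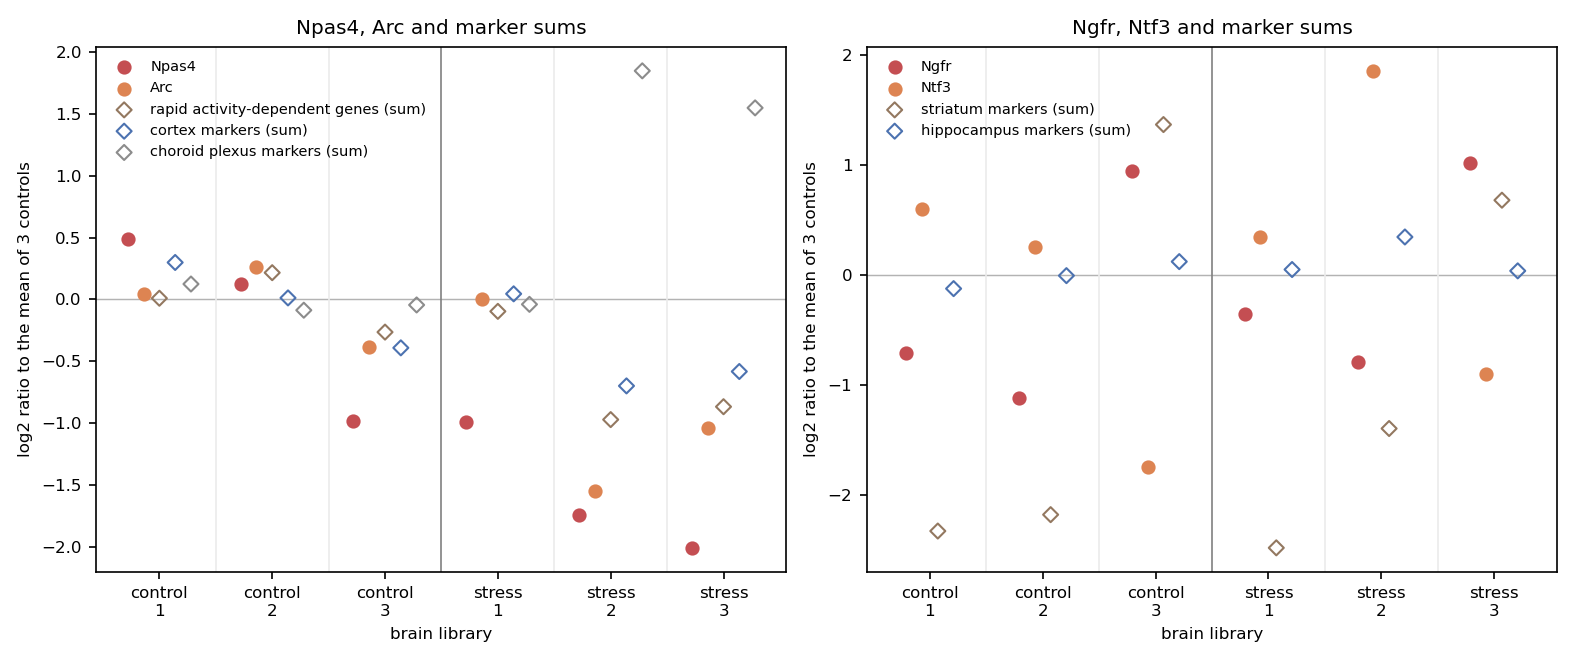
Log2 ratio of single genes (filled circles) and summed marker lists (open diamonds) to the mean of the 3 controls, for each brain library. On the left, Arc and Npas4 are lowest in stress libraries 2 and 3, where choroid plexus markers are highest, and on the right Ngfr is high in the 2 libraries numbered 3, where striatum markers are high.

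Other genes of the activity response were read from lists. Of 30 rapid genes, which include Arc and Npas4, 29 were tested in brain. Their log2 differences were negative for 27 and positive for 2, with a median of -0.452 against -0.003 over all genes tested. By edgeR 0 were called, 13 had an unadjusted p under 0.05 in the lower direction, and DESeq2 called 5 lower. Over all 17668 genes tested, 597 had such a p in the lower direction and DESeq2 called 44 lower. With the replicate block 3 were called lower, of 5 among all genes, namely Npas4, Btg2 and Dusp1, the last of which was chosen after its values were seen. Btg2, an inhibitor of proliferation, had 149, 169 and 59.1 CPM in control and 41.7, 40.8 and 27.4 CPM in stress brain (-1.77 ± 0.37, adjusted p = 0.387, with the block 0.012). Dusp1, a phosphatase that switches off MAP kinases, had a log2 difference of -1.0 (adjusted p = 0.532, with the block 0.0238). Egr4 (-0.89), Fosb (-0.96) and Fos (-1.39), all transcription factors, had adjusted p of 0.399, 0.442 and 0.519, and were not called with the block either. Without stress replicates 2 and 3, the lowest in Arc and Npas4 under stress, the list was split 14 positive and 15 negative (median -0.022). The split was 7 and 22 (median -0.488) without both libraries numbered 3. Without stress replicate 3 alone it was 6 and 23 (median -0.401).

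The 24 delayed activity genes, which include Bdnf, Homer1, Nptx2 and Vgf, were split 12 to 12 in brain with a median of 0.001. By edgeR 0 were called, and 4 had an unadjusted p under 0.05, all lower, against 597 lower of all 17668 genes. DESeq2 called 2 lower, where it called 0.775% of all genes in either direction. The 4 outside the set with the smallest p were uncalled and had stress values below all controls, as had 6.64% of all genes. These were Rasgrp1, an activator of Ras (-0.34), Plk2, a kinase that weakens synapses (-0.27), Ptgs2, a prostaglandin synthase (-0.66), and Rgs4, a brake on G protein signalling (-0.50), with adjusted p from 0.442 to 0.638.

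Around BDNF itself, 0 genes were called by edgeR in any of the lists of neurotrophin ligands, receptors, processing and signalling in brain. Of the receptors and co-receptors 9 of 10 were tested, with 4 positive and 5 negative and a median of -0.065. Kidins220, a scaffold of Trk receptors (-0.12), and Sort1, which sorts BDNF and binds precursor forms (-0.08), came nearest to the threshold along with Sorcs3 (0.10) and Lingo1 (-0.07). Of 11 processing genes tested, 3 had an unadjusted p under 0.05, as did 7.54% of all genes. Pcsk2, a prohormone convertase, had 350.3 ± 14.9 CPM in control and 271 ± 22.05 CPM under stress (-0.37 ± 0.08, adjusted p = 0.407). Furin, which cleaves neurotrophin precursors inside the cell, was at 0.22 (adjusted p = 0.613), and Plat, the protease that makes plasmin for cleavage outside the cell, at 0.35 (adjusted p = 0.616). The 53 genes of Trk signalling were split 25 to 28 with a median of -0.002. Among them Camk4, a calcium-dependent kinase upstream of CREB, had -0.41 (adjusted p = 0.62) and Creb1 had 0.20 (adjusted p = 0.638).

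The partners of Homer1, Nptx2 and Vgf were likewise uncalled. Of 26 Homer, pentraxin and receptor scaffold genes 16 were positive and 10 negative (median 0.037), with Homer3 at 0.42 (adjusted p = 0.65) and the glutamate receptor subunit Gria1 at 0.26 (adjusted p = 0.662) as the 2 with an unadjusted p under 0.05. That is near the share over all genes, 7.54%. Of 16 granin and dense core vesicle genes 11 were positive and 5 negative (median 0.038), and Pcsk2 alone had an unadjusted p under 0.05.

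Over the 6 brain libraries the pair Arc and Npas4 had a Pearson r of 0.84 between log2 CPM values, while Bdnf and Npas4 had 0.12 and Bdnf and Arc 0.26. Ngfr had 0.82 with Vgf, -0.81 with Ntrk2 and -0.80 with Ntf3, and Ntf3 had 0.83 with Ntrk2. These are descriptions of 6 points that share group, depth and regional makeup. Among 11274 genes with a mean of at least 5 CPM, those most like Arc were Parp2 (0.991), Slc29a3 (0.986) and Hnrnpu (0.986). Those most like Npas4 were Otx1 (0.995), Lrrc8b (0.994) and Med31 (0.993). Those most like Bdnf were Tnxb (0.994), Cacna1g (0.987) and Dlc1 (0.986).

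In liver, 6 of the 10 genes had enough counts to be tested, and 0 of these 6 were called by edgeR, where 1.63% of all genes were called. At an unadjusted p under 0.05 there were 2, Arc and Ntrk2, both lower, as were 8.37% of all genes, and DESeq2 called 1, Ntrk2, among 5.93% of all genes. Arc had 1.57, 5.59 and 7.64 CPM in control liver and 0.256, 2.48 and 0.196 CPM in stress liver. Stress replicate 2 lay between the controls, and the other 2 stress libraries, with 8 and 6 counts, lay below all of them. The log2 difference was -2.32 ± 0.86 (-4.24 to -0.40, adjusted p = 0.207). It was -4.42 without stress replicate 2, where Arc was called (adjusted p = 0.0253) among 1.45% of genes. With no filter on low counts edgeR also called it (-2.31, adjusted p = 0.00825), among 3.69% of genes.

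Ntrk2 had 0.932, 0.298 and 3.82 CPM in control liver and 0.192, 0.363 and 0.131 CPM in stress liver, from 4 to 123 counts per library. Control replicate 3 was far above the rest, and control replicate 2 lay below stress replicate 2. The difference was -2.85 ± 0.88 (adjusted p = 0.14), and -1.41 without control replicate 3. It was called by DESeq2 (-2.88, adjusted p = 0.00861) and by edgeR with no filter (-2.84, adjusted p = 0.00693).

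Bdnf had 4.89, 3.45 and 2.73 CPM in control liver and 2.72, 1.39 and 2.75 CPM under stress (-0.69 ± 0.34, -1.45 to 0.06, adjusted p = 0.333). Homer1 had 7.83, 11.5 and 19.8 CPM in control and 9.26, 15.2 and 14.8 CPM under stress (0.01, -0.71 to 0.72, adjusted p = 0.996). Ngfr, which hepatic stellate cells are known to carry, had 1.37, 2.08 and 1.77 CPM in control and 3.62, 1.63 and 1.24 CPM under stress (0.31 ± 0.42, adjusted p = 0.752). Ntf3, with 2 to 18 counts per library, was at -0.33 ± 0.75 (adjusted p = 0.867).

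The summed level of the 30 rapid genes placed stress liver replicate 2 apart from the other stress libraries, as Arc did. It was 4524, 5597 and 5072 CPM in control liver and 419.3, 4083 and 499.2 CPM in stress liver. Genes of the list differed in how near stress replicate 2 came to the controls. Jun had 366 to 674 CPM in control and 405 CPM in stress replicate 2. Fosb had 23.1 to 29.8 CPM in control and 1.28, 4.56 and 1.05 CPM in stress replicates 1, 2 and 3. Nr4a3 did not set replicate 2 above the others, with 0.0641, 0.0604 and 0.393 CPM under stress, all near 0. Jun was chosen after its values were seen. Of 26 rapid genes tested 24 were negative and 2 positive, with a median of -1.481 against -0.009 over all genes. Called lower were 2, against 92 of all 14253 genes, namely Fosb (-3.50 ± 0.46, adjusted p = 0.0116) and Nr4a3 (-4.78 ± 0.99, adjusted p = 0.0498). Without stress replicate 2 there were 16 called lower, against 123 of all 14657 genes, and the median was -3.384. Markers of other cell types also moved with stress in liver, and their part in these results and in those of Arc and Ntrk2 was not tested. Markers of microglia, most of which tissue macrophages share, summed to 49.57 to 57.26 CPM in control and 98.59 to 127.3 CPM in stress liver. Of these markers 8 of 10 were positive and 4 were called higher, against 140 of all 14253 genes. Endothelial markers summed to 78.91 to 109 CPM in control and 32.32 to 71.33 CPM in stress liver, with 7 of 8 tested negative and 0 called by edgeR. At an unadjusted p under 0.05 there were 4, all lower, against 1193 lower of all 14253 genes. Hepatic stellate cell markers overlapped, with 116.6 to 159.1 CPM in control and 123.4 to 187.4 CPM under stress. Of the receptor list in liver, Sort1 had groups without overlap at -0.64 ± 0.15 (adjusted p = 0.0661) and was not called. Toward lower values, 1580 of all 14253 genes separated this way.

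**Figure D4:**
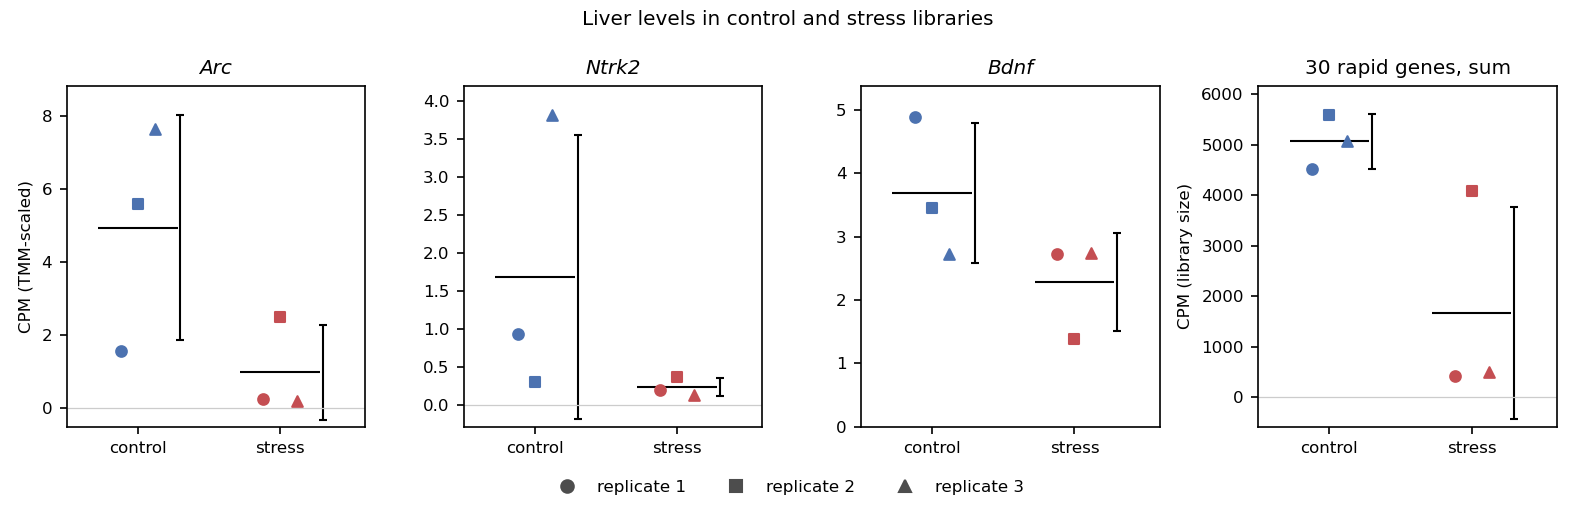
CPM of Arc, Ntrk2 and Bdnf and the summed CPM of the 30 rapid genes in the 6 liver libraries, with symbols for replicate numbers, lines for means and bars for the SD of 3 libraries. Stress replicate 2 is the highest stress library for Arc and for the summed rapid genes (4083 CPM), and control replicate 3 carries the Ntrk2 mean.

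In testis all 10 genes were tested and 0 were called by edgeR or DESeq2, where 0.0201% of all genes were called. At an unadjusted p under 0.05 there were also 0, against 11.7% of all genes. Arc had 264, 286 and 285 CPM in control and 268, 277 and 259 CPM in stress testis, a log2 difference of -0.05 with a narrow interval (-0.24 to 0.13, adjusted p = 0.79). Ngfr had 22.1, 24.4 and 24.9 CPM in control and 23.3, 19.97 and 22.3 CPM under stress (-0.12, -0.37 to 0.13, adjusted p = 0.624). Homer1 was the one gene whose groups did not overlap, with 17.7, 15.9 and 17.5 CPM in control and 15.4, 10.6 and 15.6 CPM under stress (-0.30 ± 0.16, -0.66 to 0.07, adjusted p = 0.464), and 10.7% of all genes separated this way. Npas4 was low in both groups, with 2.39 to 2.81 CPM in control and 2.09 to 4.24 CPM under stress (0.22 ± 0.27, adjusted p = 0.734). Bdnf rested on 8 to 31 counts per library (-0.61 ± 0.53, -1.80 to 0.58, adjusted p = 0.61). Nptx2 was at 0.23 (-0.22 to 0.68), Vgf at 0.17 (-0.35 to 0.69), Ntrk2 at 0.06 (-0.37 to 0.48), Ntrk3 at 0.01 (-0.41 to 0.42) and Ntf3 at 0.04 (-0.78 to 0.87). The rapid gene list, with 15 positive and 14 negative and a median of 0.029, lay near the median of all genes in testis, 0.014.

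**Figure D5:**
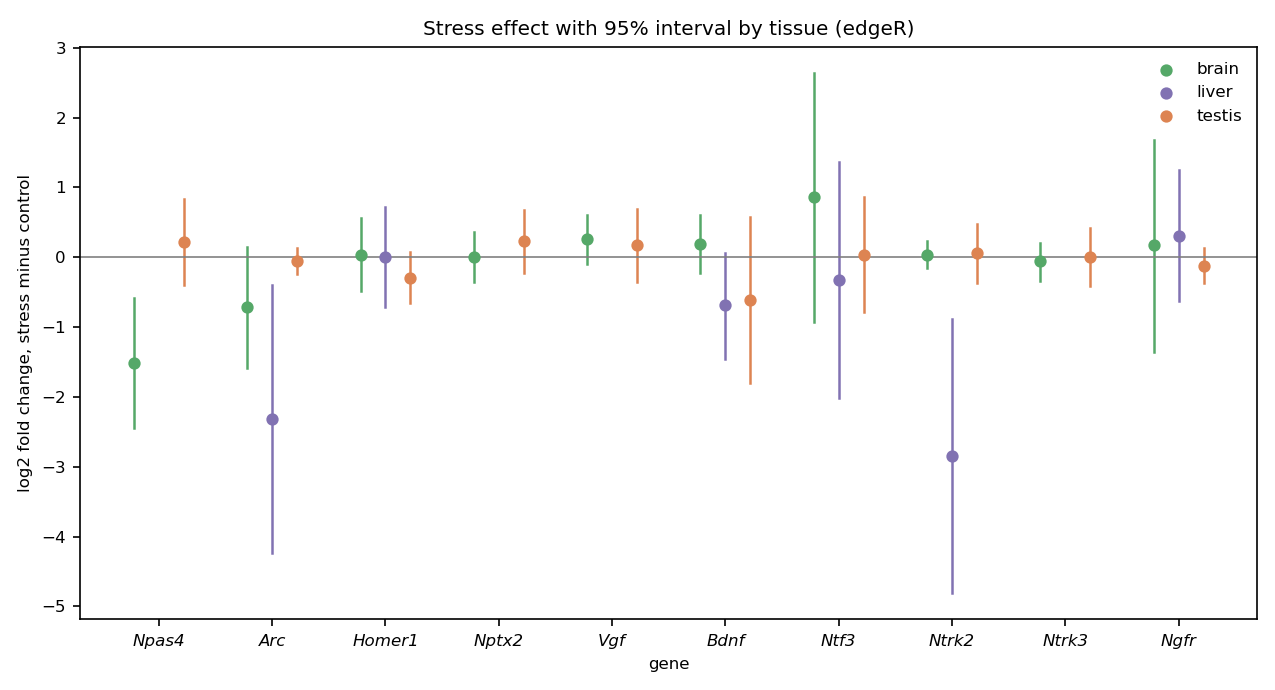
Log2 fold change, stress minus control, of each gene with its 95% interval from edgeR, in brain (green), liver (purple, 6 genes) and testis (orange). The intervals of Npas4 in brain and of Arc and Ntrk2 in liver lie below 0, and none of the 3 passed the adjusted threshold.

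Whether the stress difference itself differed between tissues was tested as an interaction over 12 libraries, and 0 of the 10 genes were called in either test by edgeR or DESeq2. With the animal as a block edgeR also called 0 of them. The values below are from the main fit, which holds no term for the animal, although the tissues share animals. Brain against liver called 0.195% of all genes, and 2 of the 10, Bdnf and Ntrk2, had an unadjusted p under 0.05, as did 11.6% of all genes. There Bdnf differed by 0.88 ± 0.39 (adjusted p = 0.404), Ntrk2 by 2.87 ± 0.90 (adjusted p = 0.226) and Arc by 1.57 ± 0.97 (adjusted p = 0.578). The values of Npas4, Nptx2, Vgf and Ntrk3 in that test rest on liver counts at or near 0 and carry no direction. Brain against testis called 0.0% of 22391 genes by edgeR (85 genes by DESeq2, and 9.43% of genes at an unadjusted p under 0.05). Npas4 differed by -1.74 ± 0.53 (-2.90 to -0.59, adjusted p = 0.415), and was the only one of the 10 with an unadjusted p under 0.05 there. Arc differed by -0.68 ± 0.40 (adjusted p = 0.612) and Bdnf by 0.79 ± 0.51 (adjusted p = 0.635).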

How the data were processed

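RNA sequencing libraries from total RNA (a stranded kit, per the labels) were placed on mouse build mm39, per the submitters' processing notes. The sources used here do not give the aligner, counting program, annotation or strand setting. Antisense genes overlap Bdnf, Ntrk2 and Ntrk3, and whether the counting kept strands apart is not known. Same-strand genes overlap Homer1, Ntrk2 and Ntrk3, and strand does not separate those. The authors deposited whole-number counts, TPM and FPKM per gene. The deposited TPM values are scaled to 1 fixed total per library by the authors, and the deposited FPKM values imply 1 fixed length per gene and served to read those lengths. Symbols came from GENCODE M21 by gene identifier, with 34362 of 34932 genes matched, and since it belongs to another build no gene positions are given from it. The positions of the promoter windows are those of GRCm38.p6 and not of mm39. Columns outside the samples were 0.

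Counts were tested with edgeR 4.0.16 in R 4.3.3 (TMM, default low-count filter, quasi-likelihood test, Benjamini-Hochberg over all genes tested, threshold 0.05). CPM values are TMM-scaled, except summed lists, which use library size. Alternatives were a replicate block, DESeq2 1.42.0, its size factors in edgeR, no filter, limma 3.58.1 on log2(TPM + 1) and leaving out each library, with 2 more brain alternatives chosen after seeing the data. In tests between tissues the replicate block is the animal, and the main fits hold no term for it. The tests were tested on simulated data.

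Same-numbered control and stress libraries deviated together in brain (correlations across genes 0.305, 0.167 and 0.439), so values with the block stand beside brain results where they change a call. The numbers name no pairs in the labels. These correlations were 0.187, 0.053 and -0.001 in liver and 0.077, 0.068 and -0.088 in testis. All but the first of liver lay below the lowest of brain, 0.167, and the difference between tissues was not tested.

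The members and lists were chosen with earlier results of these data known. The text names all 10 members, up to 4 others per described list in each comparison (those of lowest p), and the 3 genes most correlated with Arc, Npas4 and Bdnf. Any other gene is said to be chosen after its values were seen. Intervals of log2 differences come from edgeR and include the spread between libraries, while the intervals and floors of the brain to liver ratios cover counting error only. Some genes of the lists are not reported here.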

Additional observations from a re-analysis of the deposited data

How the results depend on the processing

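Across the alternatives run for each gene, most values kept their sign and their side of the threshold: 117 of 130 in brain, 55 of 66 in liver and 97 of 110 in testis. Nptx2 in brain, with a main value of 0.00, had no sign to lose, and its values count as kept. No paired value changed a call among the 10 genes except for Npas4 in brain. In liver the replicate block called 475 genes, although the replicate numbers name no pairs in the labels.

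Genes called in brain were 22 with the replicate block (1 of the 10 members), 137 by DESeq2, 2 with no filter, 2 without both libraries numbered 3, 0 without the stress libraries rich in choroid plexus markers, and 0 to 1 without single libraries. In liver they were 845 by DESeq2 (1 member), 858 with no filter (2 members), 143 by limma on TPM and 31 to 291 without single libraries (0 to 1 members). In testis they were 61 by DESeq2, 25 with no filter, 2 by limma and 0 to 21 without single libraries. The brain and liver interaction called 2 with the replicate block, 562 by DESeq2, 123 with no filter and 5 to 112 without single libraries. The brain and testis interaction called 85 by DESeq2, 8 with no filter, 4 by limma and 0 to 3 without single libraries. The causes were not tested.

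Some signs reversed. In brain, leaving out both libraries numbered 3 gave -0.01 for Ntrk2 and 0.03 for Ntrk3, and leaving out stress replicates 2 and 3 gave 0.16 for Ntrk3 and -0.35 for Ngfr. In testis, limma gave -0.01 for Ntrk2, -0.06 for Ntrk3 and -0.02 for Ntf3, and DESeq2 or its size factors -0.01 for Ntrk3. For control brain minus liver, limma gave 0.77 for Ngfr. In the brain and liver interaction, limma gave -1.39 for Npas4 and 0.05 for Ngfr, and the replicate block -0.04 for Homer1 and 0.01 for Ngfr. In the brain and testis interaction, Ntrk2 was 0.02 by DESeq2 or its size factors and 0.07 by limma.

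Leaving out single libraries gave these ranges. In brain they were -0.16 to 0.24 for Homer1, -0.09 to 0.13 for Nptx2, -0.03 to 0.08 for Ntrk2, -0.19 to 0.04 for Ntrk3, -0.15 to 1.29 for Ntf3 and -0.56 to 1.07 for Ngfr. In liver they were -0.26 to 0.44 for Homer1, -1.06 to 0.15 for Ntf3 and -0.27 to 0.59 for Ngfr. In testis they were -0.09 to 0.44 for Npas4, -0.03 to 0.13 for Ntrk2, -0.13 to 0.11 for Ntrk3 and -0.11 to 0.38 for Ntf3. For control brain minus liver, Ngfr ran from -1.22 to 0.03. In the brain and liver interaction they were -1.52 to 3.20 for Npas4, -0.33 to 0.33 for Homer1 and -0.88 to 0.75 for Ngfr. In the brain and testis interaction they were -0.11 to 0.06 for Ntrk2, -0.19 to 0.06 for Ntrk3, -0.21 to 1.25 for Ntf3 and -0.45 to 1.18 for Ngfr.

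With 3 libraries a group, the 95% intervals of Ntf3 and Ngfr in brain and of Arc and Ntrk2 in liver span more than 2 log2 units.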
